A study of Rattus norvegicus with 4 samples.

Results

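Transcripts of 10 secreted ligands of the TGF-beta superfamily were followed in cultured neonatal rat ventricular cardiomyocytes with and without phenylephrine (PE). The genes are Tgfb1, Tgfb2, Tgfb3, the activin and inhibin beta chains Inhba and Inhbb, Gdf15, Bmp2, Bmp4, Bmp10 and Mstn. They were found by gene name among 32883 annotated genes, and each name belonged to 1 identifier. PE is an agonist of alpha-1 adrenergic receptors and a standard inducer of hypertrophic growth in these cells. Ventricular cells of Sprague-Dawley rats at postnatal day 2 were depleted of rapidly attaching non-cardiomyocytes and grown in medium with serum. They then received 20 µM PE for 24 h (2 libraries) or were left untreated (2 libraries, called control). Both groups are wild-type primary cultures, the labels do not say how many animals were pooled, and some non-cardiomyocytes can remain after such plating. Since no label states that libraries of a group are separate cultures, the p-values speak only of the variation among these 4 libraries, which could be technical.

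Ligands of this superfamily are made as long precursors that are cut by furin-like proteases into short dimeric signals, each chain folded around a cystine knot. TGF-betas and activins bind receptor kinases that phosphorylate SMAD2 and SMAD3, whereas most BMPs act through SMAD1, SMAD5 and SMAD9. TGF-betas leave the cell in a latent complex, and soluble proteins such as follistatin and noggin trap activins and BMPs outside it. In the heart the family is known for fibrosis, valve and septum formation, trabecular growth and the restraint of muscle mass.

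Total counts were 56948370 and 48075810 in the PE libraries and 51917449 and 45637881 in the controls. Mitochondrial transcripts took 4.61% and 4.76% of counts in the PE libraries, and 6.19% and 11.7% in control replicates 1 and 2. Levels are CPM (counts divided by the library total, on the usual CPM scale) adjusted by TMM library factors. They were not corrected for transcript length, so a level is compared only between libraries and never between genes. Cardiomyocyte marker genes summed to 13874 and 15305 CPM with PE and to 13040 and 13302 CPM in control, and none of the 7 was at 0. Myl2 and Myl3 were called higher, Actn2 and Tnni3 had positive and Tnnt2, Ryr2 and Myh6 negative log2 fold changes that did not pass. The median of this list was 0.12, and 0.06 to 0.19 with each library left out. Summed fibroblast markers were 10082 and 9994 CPM with PE, against 18165 and 16275 CPM in control, with 2 of 7 tested genes lower, Pdgfra and Col3a1. Most of that sum came from Col3a1, Col1a1 and Postn, which also belong to the TGF-beta response genes. The other fibroblast markers summed to 2314 and 1652 CPM with PE and to 1484 and 2139 CPM in control, and overlapped. This split was chosen after the values had been seen. Dcn was the largest part of that sum in each library, at 1570 and 1082 CPM with PE and 683 and 1186 CPM in control. It is also counted among the extracellular antagonists below. Pdgfra, in the same sum, was at 443 and 362 CPM with PE and 628 and 650 CPM in control, without overlap. Dcn, Lum and Tcf21 had positive log2 fold changes that did not pass. Endothelial markers summed to 126 and 130 CPM with PE and to 213 and 213 CPM in control, with 5 of 6 tested genes lower. Macrophage markers summed to 132 and 134 CPM with PE and to 196 and 220 CPM in control, with 3 of 7 lower. Mesothelial markers summed to 99.2 and 110 CPM with PE and to 201 and 168 CPM in control, with 3 of 5 lower and 1 higher. Smooth muscle and pericyte markers summed to 1123 and 1364 CPM with PE and to 1226 and 860 CPM in control, with 2 of 6 higher, Cnn1 and Cspg4. The other 4, Myh11, Acta2, Rgs5 and Pdgfrb, had negative log2 fold changes that did not pass, and the list median was -0.25. When each library was left out, 1 to 5 endothelial, 0 to 6 macrophage, 1 to 3 mesothelial and 1 to 4 fibroblast markers were lower. The macrophage count was 0 in edgeR on omitting PE replicate 1 or PE replicate 2, with 3 and 4 at an unadjusted p under 0.05, and DESeq2 on all libraries called 3. Among these non-cardiomyocyte markers, the symbol Pecam1 was not matched and Col1a2 was near 0 in every library (0.0178 to 0.0932 CPM). In bulk RNA, fewer cells of a type and less RNA per cell cannot be told apart.

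With PE, 3 of the 9 tested ligand genes were higher and 1 was lower at an adjusted p under 0.05 in edgeR's quasi-likelihood test, and 5 did not pass. Tgfb2, Inhba and Bmp2 rose, by 4.86-fold, 2.74-fold and 2.15-fold, and Bmp4 fell to 0.553 of its control level. Over all 15257 genes tested, 15.7% were called, 7.39% higher and 8.3% lower. The median log2 fold change was 0.49 over the 9 ligand genes and -0.01 over all tested genes. The ligand median was 0.29 on omitting control replicate 2 and 0.72 on omitting control replicate 1. PE and control libraries did not overlap for 7 of the 9 ligands, beside 56.7% of all tested genes. Mstn had too few counts to be tested.

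**Figure D1:**
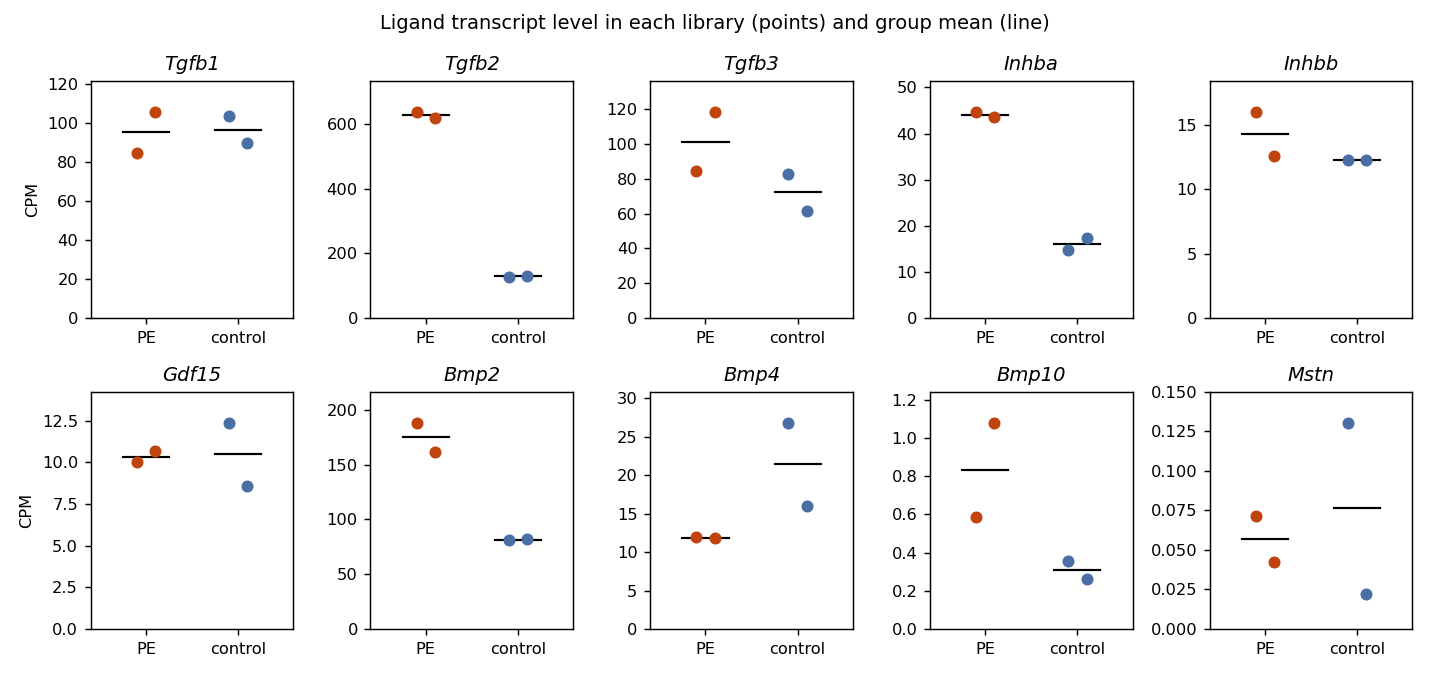
Level of each ligand transcript in CPM (vertical axis, from 0, a separate scale for each gene) in the 2 PE libraries and the 2 control libraries. Points are libraries and lines are group means. The PE points of Tgfb2 (636 and 618 CPM) lie far above its control points (128 and 131 CPM), while those of Tgfb1 and Gdf15 overlap the controls.

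The promoter windows of the genes with the strongest rise and of the gene that fell are shown to set their sequence beside the counts. Windows run from 250 bases before to 50 bases after the annotated start and come from RefSeq on the build GRCr8, which is not the build of the counts. Of the 10 symbols, 8 matched an entry, in 9 windows. Bmp2 and Mstn had no entry. Each line reads 5′ to 3′ along the gene. Capitals mark matches, on either strand, to 6 short motifs. The first is the AP-1 site, searched as TGANTCA, where N is any base. The cAMP response element was searched as TGACGTCA and, with 1 changed base, as TGATGTCA. The TEAD element was searched as CATTCC. For the E-box the letters were CACGTG. The TATA box was searched as TATAAA. No capitalised match overlapped another. These motifs were chosen after the windows had been seen, and a match is not a binding site. The 3 windows lie at chr13:100792636-100792935 (minus strand, Tgfb2), chr17:53804459-53804758 (minus strand, Inhba) and chr15:22101884-22102183 (minus strand, Bmp4).
Tgfb2: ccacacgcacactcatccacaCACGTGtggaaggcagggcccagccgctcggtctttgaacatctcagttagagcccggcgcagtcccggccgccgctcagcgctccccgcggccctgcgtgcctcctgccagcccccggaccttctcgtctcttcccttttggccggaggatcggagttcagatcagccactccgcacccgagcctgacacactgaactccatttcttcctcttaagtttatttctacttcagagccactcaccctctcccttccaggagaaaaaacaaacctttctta
Inhba: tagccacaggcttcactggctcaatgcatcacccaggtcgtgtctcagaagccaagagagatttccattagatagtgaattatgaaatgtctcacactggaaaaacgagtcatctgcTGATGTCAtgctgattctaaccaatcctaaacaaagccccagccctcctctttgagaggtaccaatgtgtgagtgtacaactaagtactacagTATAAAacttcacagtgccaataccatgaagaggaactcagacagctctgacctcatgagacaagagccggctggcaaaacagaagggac
Bmp4: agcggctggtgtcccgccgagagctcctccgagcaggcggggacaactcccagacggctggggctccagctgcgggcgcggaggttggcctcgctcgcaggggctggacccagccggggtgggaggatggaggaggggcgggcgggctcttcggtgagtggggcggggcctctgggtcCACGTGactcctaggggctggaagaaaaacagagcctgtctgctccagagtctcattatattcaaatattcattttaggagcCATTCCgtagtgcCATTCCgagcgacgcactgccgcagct

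The Tgfb2 and Inhba windows shared none of the 6 capitalised motifs. Tgfb2 held 1 CACGTG, at base -229 from the start, and Bmp4 held 1 at base -72. This motif occurs in 6.42% of 33469 RefSeq windows of the same length. Inhba held 1 TGATGTCA at base -133, present in 4.34% of all windows, and 1 TATAAA at base -40, present in 14.2%. Bmp4 held CATTCC at bases 11 and 24 after the start, a motif of 14.2% of all windows. No ligand window held TGANTCA or TGACGTCA, which occur in 7.33% and 1.83% of windows. Not capitalised were CAGAC (SMAD element), found in Bmp4, Gdf15 and Inhba and in 50.1% of all windows, and GGGCGG (GC box), found in Bmp4, Gdf15 and Inhbb and in 33.1%. GC content was 59% for Tgfb2, 45.7% for Inhba and 65% for Bmp4.

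The 3 TGF-beta isoform genes, whose products bind the same receptors, did not move alike. Tgfb2 (ENSRNOG00000002418) had 35708 and 29197 counts in the PE libraries, against 6847 and 5962 in the controls. That is 636 and 618 CPM with PE and 128 and 131 CPM in control. Both PE libraries were several times above both controls, and libraries of a group lay close together. Tgfb2 rose by 2.28 ± 0.16 on the log2 scale (SE, adjusted p = 2.32e-05, edgeR, 95% interval 1.91 to 2.64). It ranked 43 among 15257 genes by p, and 0.931% of tested genes had a higher log2 fold change. Leaving out any single library kept its log2 fold change between 2.26 and 2.31. A small nucleolar RNA locus overlaps Tgfb2 in GRCr8. The strand setting of the counting is not given, so reads shared with it cannot be told apart. In the authors' deposited table Tgfb2 is given as 2.28 ± 0.17 (adjusted p = 1.04e-37).

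Tgfb1 (ENSRNOG00000020652), the isoform most often studied in fibrosis, was at 84.6 and 106 CPM with PE and at 103 and 89.8 CPM in control. The groups overlapped, and its log2 fold change was -0.02 ± 0.18 (adjusted p = 0.954), with a 95% interval of -0.41 to 0.37. Tgfb3 (ENSRNOG00000009867), known for palate and heart development, was at 84.4 and 118 CPM with PE and at 82.9 and 61.7 CPM in control. PE replicate 1 lay only just above control replicate 1. Its log2 fold change of 0.49 ± 0.21 did not pass (adjusted p = 0.159). Without control replicate 1 it was 0.72 and passed (adjusted p = 6.02e-05), in a fit whose spread came from the PE pair alone. Without the other libraries it stayed between 0.23 and 0.71 and did not pass.

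Of all counts on the 3 isoform genes, Tgfb2 took 79% and 73.4% in the PE libraries and 40.6% and 46.3% in the controls. Tgfb1 took 10.5% and 12.5% with PE and 33% and 31.8% in control. The Tgfb2 to Tgfb1 count ratio was 7.52 and 5.86 with PE, against 1.23 and 1.46 in control. The ratio to Tgfb3 was 7.54 and 5.23 with PE, against 1.54 and 2.12 in control. Neither ratio overlapped between the groups, but with 2 libraries each an exact permutation test cannot go below p = 0.333, two-sided, which both gave. Shares and ratios of counts depend on transcript length and are read only across libraries. These ratios, and the other count ratios given below, were chosen after the values had been seen.

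**Figure D2:**
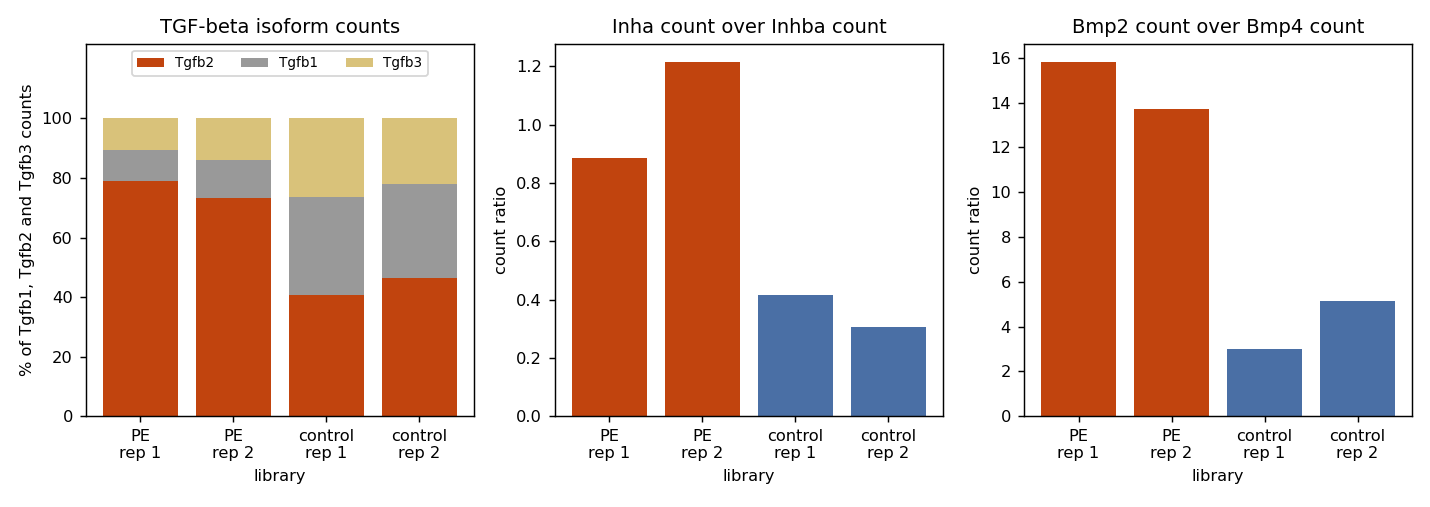
Left, share of the counts on Tgfb1, Tgfb2 and Tgfb3 taken by each gene (percent) in the 2 PE and 2 control libraries. Middle and right, count ratios of Inha to Inhba and of Bmp2 to Bmp4 in the same libraries, on axes from 0. Tgfb2 takes 79% and 73.4% with PE and 40.6% and 46.3% in control, and both ratios are higher in each PE library than in either control.

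Inhba (ENSRNOG00000014320) encodes the beta chain of activin A. It was at 44.7 and 43.5 CPM with PE and at 14.7 and 17.5 CPM in control, so the groups were well apart. Inhba rose by 1.46 ± 0.18 on the log2 scale (adjusted p = 0.000385, edgeR), and it stayed between 1.34 and 1.59 with any library left out. Its sister gene Inhbb (ENSRNOG00000060237), the beta chain of activin B, was at 16 and 12.6 CPM with PE and at 12.3 and 12.3 CPM in control. PE replicate 2 was barely above the controls. Its log2 fold change of 0.22 ± 0.19 did not pass (adjusted p = 0.519, 95% interval -0.22 to 0.65). The Inhba to Inhbb count ratio was 2.79 and 3.46 with PE, against 1.19 and 1.42 in control (exact permutation p = 0.333, the smallest possible).

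Gdf15 (ENSRNOG00000019661) encodes a stress-induced circulating factor whose receptor, Gfral, sits in the brainstem. It was at 10 and 10.7 CPM with PE and at 12.4 and 8.6 CPM in control, with the PE libraries between the controls. Its log2 fold change was -0.02 ± 0.22 (adjusted p = 0.962, 95% interval -0.51 to 0.46). Omitting control replicate 2 gave -0.26 and omitting control replicate 1 gave 0.27, neither of which passed. In the GRCr8 annotation the Gdf15 locus overlaps Lrrc25, and since the strand setting of the counting is not given, shared reads cannot be told apart. Mstn (ENSRNOG00000021294), myostatin, an inhibitor of muscle growth, had 4 and 2 counts with PE and 7 and 1 in control. No fold is given at this depth.

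Among the BMP genes, Bmp2 and Bmp4 moved in opposite directions. Bmp2 (ENSRNOG00000021276), a signal of valve and atrioventricular canal formation, was at 188 and 162 CPM with PE and at 80.9 and 82 CPM in control. Both PE libraries lay well above the controls, which were nearly equal. Bmp2 rose by 1.10 ± 0.16 on the log2 scale (adjusted p = 0.00128, edgeR) and passed with any library left out, at 1.00 (adjusted p = 0.0423) without PE replicate 1 and 1.22 without PE replicate 2.

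Bmp4 (ENSRNOG00000009694), a close relative of Bmp2 with the same receptors, was at 11.9 and 11.8 CPM with PE and at 26.9 and 16 CPM in control. The PE pair lay below both controls, and control replicate 1 was well above control replicate 2. It fell by 0.85 ± 0.24 on the log2 scale (adjusted p = 0.0388, edgeR), close to the threshold. Omitting control replicate 1 gave -0.42 and ended the call (adjusted p = 0.0642). The call also ended on omitting PE replicate 1 (-0.86, adjusted p = 0.148) and on omitting PE replicate 2 (-0.84, adjusted p = 0.153). Omitting control replicate 2 gave -1.18, which passed. That fit kept only the higher control, and its spread came from the PE pair alone. Marker sums of endothelium, macrophages and mesothelium were also lower with PE, as was the sum of all fibroblast markers. The part of these markers in the Bmp4 result was not tested. Bmp4 overlaps a noncoding RNA locus in GRCr8, with the same limit on strand as for Gdf15. The Bmp2 to Bmp4 count ratio was 15.8 and 13.7 with PE, against 3.01 and 5.13 in control (exact permutation p = 0.333, the smallest possible).

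Bmp10 (ENSRNOG00000009316), needed for trabecular growth in the embryonic heart, was low, with 33 and 51 counts in the PE libraries and 19 and 12 in the controls. That is 0.588 and 1.08 CPM with PE and 0.354 and 0.263 CPM in control, with no overlap. Its log2 fold change of 1.41 ± 0.50 did not pass (adjusted p = 0.0875), and its 95% interval was wide, 0.30 to 2.52. It passed when no filter on low counts was used (adjusted p = 0.0339), and was 0.92 without PE replicate 2.

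**Figure D3:**
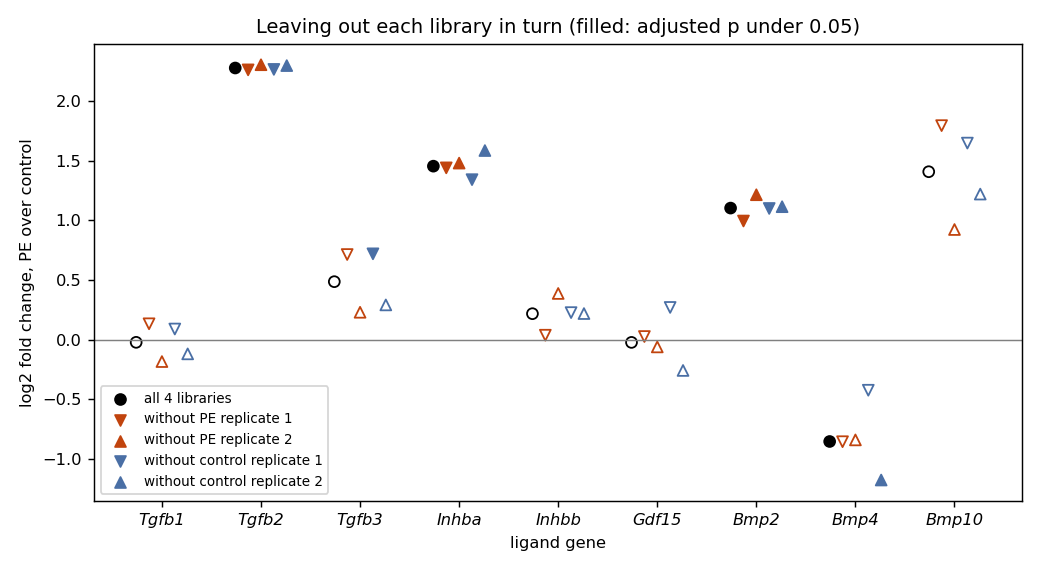
Log2 fold change, PE over control (vertical axis), of the 9 tested ligand genes with all 4 libraries (circles) and with each library left out (triangles). Filled symbols have an adjusted p under 0.05. Tgfb2, Inhba and Bmp2 stay filled throughout, while Bmp4 is filled only with all libraries and without control replicate 2.

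For the 3 called ligands with the largest change, the nearest genes in pattern were found by the Euclidean distance between centred log2(CPM + 0.01) values over the 4 libraries, 2 in each group. Nearest to Tgfb2 were Gja5, a connexin, at a distance of 0.0629, then Crym (0.0708) and Stk38l (0.0993). Gja5 was at 117 and 121 CPM with PE and at 24 and 24.2 CPM in control. Nearest to Inhba were Pter (0.0515), the antizyme inhibitor Azin1 (0.118) and the sterol enzyme Sc5d (0.127). Nearest to Bmp2 were Tmem144 (0.0639), Tiparp (0.0801) and the annexin Anxa2 (0.0833). The measure rests on 4 libraries and says nothing of shared function or control.

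Other genes of the pathway were taken from textbook lists of receptors, SMADs, extracellular antagonists, latency and processing genes, further ligands and response genes. These lists were chosen with earlier results of these data known, and some of them share genes. Counting each gene once, 91 of 108 could be tested, and their median log2 fold change was 0.11. Over all tested genes 7.39% were higher and 8.3% lower, shares to set beside each list below. Of the 91 pathway genes, 20 were higher and 12 lower with PE. These counts moved with the libraries used, between 10 and 32 higher and between 3 and 22 lower when each library was left out.

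Of 12 tested receptors, 1 rose, 3 fell and 8 did not pass (median 0.11, and 0.07 on omitting PE replicate 1). Tgfbr2, the type II receptor that all TGF-betas need, was at 135 and 142 CPM with PE and at 244 and 190 CPM in control. It fell by 0.65 ± 0.17 on the log2 scale (adjusted p = 0.0300). Tgfbr3, betaglycan, which presents TGF-beta2 to the signalling receptors and also binds inhibin, was at 168 and 181 CPM with PE and at 306 and 272 CPM in control. It fell by 0.73 ± 0.16 (adjusted p = 0.0122). Acvr2b, a type II receptor of activins and myostatin, fell by 0.93 ± 0.25 (adjusted p = 0.0304), to 1.98 and 1.78 CPM with PE, against 3.86 and 3.31 CPM in control. Acvr1b, the type I receptor of activins, rose by 0.73 ± 0.16 (adjusted p = 0.0108), at 218 and 196 CPM with PE and 127 and 122 CPM in control. Omitting PE replicate 1 ended all 4 calls (adjusted p = 0.426, 0.350, 0.123 and 0.319 for Tgfbr2, Tgfbr3, Acvr2b and Acvr1b) and so did omitting PE replicate 2 (adjusted p = 0.321, 0.215, 0.212 and 0.137). The lower endothelial, macrophage and mesothelial marker sums, and the lower sum of all fibroblast markers, stand beside the lower Tgfbr2 and Tgfbr3 values. The part of these markers was not tested.

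Among 13 SMAD genes and their regulators, 2 rose and 11 did not pass (median 0.08, and 0.11 to 0.25 with each library left out). No gene of this list was lower in edgeR, none at an unadjusted p under 0.05 and none with DESeq2. Skil, a SMAD co-repressor that TGF-beta signals induce, was at 100.5 and 96.9 CPM with PE and at 46.7 and 67.4 CPM in control, a rise of 0.79 ± 0.20 (adjusted p = 0.0212). Smurf2, a ubiquitin ligase for receptors and SMADs, rose by 0.57 ± 0.16 (adjusted p = 0.0335). Omitting PE replicate 1 ended both calls (adjusted p = 0.179 for Skil and 0.523 for Smurf2), as did omitting PE replicate 2 (adjusted p = 0.126 and 0.355), and Smurf2 was also lost with library sizes alone (adjusted p = 0.0524). In this list 0 genes were higher in edgeR on omitting either PE replicate, with 1 at an unadjusted p under 0.05 each time, 6 on omitting control replicate 1 and 3 on omitting control replicate 2.

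Genes of extracellular antagonists held some of the largest changes in the pathway, with 4 of 17 tested higher, 3 lower and 10 not passing (median 0.14, and -0.05 without control replicate 2). Inha, the inhibin alpha chain, pairs with a beta chain to form inhibin in place of activin. It was at 39.5 and 52.9 CPM with PE and at 6.09 and 5.38 CPM in control. Inha rose by 3.01 ± 0.21 on the log2 scale (adjusted p = 2.24e-05), more than any of the 9 tested ligands. The Inha to Inhba count ratio was 0.885 and 1.22 with PE, against 0.414 and 0.308 in control (exact permutation p = 0.333, the smallest possible).

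Both follistatin genes, whose proteins bind activins and myostatin, also rose. Fst was at 31.8 and 22.7 CPM with PE and at 8.37 and 8.54 CPM in control (1.69 ± 0.21, adjusted p = 0.000475). Fstl3 was at 16.1 and 18.6 CPM with PE and at 4.99 and 5.33 CPM in control (1.75 ± 0.20, adjusted p = 0.00027). The Fst to Inhba count ratio was 0.713 and 0.522 with PE and 0.569 and 0.489 in control, and overlapped. The ratio for Fstl3 was 0.36 and 0.428 with PE and 0.34 and 0.305 in control.

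Nog, encoding the BMP trap noggin, had 135 and 68 counts with PE and 21 and 29 in control. It rose by 1.92 ± 0.41 (adjusted p = 0.010), a call lost on omitting PE replicate 1 (adjusted p = 0.0997). Chrdl1 (-1.43 ± 0.33) and the glypican gene Gpc3 (-1.18 ± 0.17) were among the antagonist genes that fell. Both lie outside the naming rule and were chosen after their values were seen. Without PE replicate 2 no gene of the list was called lower in edgeR, with 2 at an unadjusted p under 0.05, while DESeq2 on all libraries called 3.

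Of 18 genes of latency, activation and processing, 4 rose, 2 fell and 12 did not pass (median 0.17, and 0.08 on omitting control replicate 2). Ltbp2, a fibrillin-associated protein of the latent TGF-beta binding family, was at 334 and 391 CPM with PE and at 198 and 119 CPM in control, a rise of 1.19 ± 0.23 (adjusted p = 0.00639). Itgav, the alpha-V integrin chain of receptors that free TGF-beta from its latent complex, rose by 0.73 ± 0.16 (adjusted p = 0.0103). Htra1, a secreted protease, rose by 0.76 ± 0.18 (adjusted p = 0.0188). Nrros, which holds latent TGF-beta1 on myeloid cells, fell by 1.21 ± 0.21 (adjusted p = 0.00381), to 4.31 and 4.05 CPM with PE, against 10.8 and 8.47 CPM in control, beside the lower macrophage marker sum, whose part was not tested. Omitting PE replicate 1 ended the calls of Itgav and Htra1 (adjusted p = 0.221 and 0.188), as did omitting PE replicate 2 (adjusted p = 0.221 and 0.176). In this list 1 gene was higher and 1 lower on omitting either PE replicate, 8 and 2 on omitting control replicate 1, and 4 and 6 on omitting control replicate 2. Furin, which cuts the precursors, was not called (0.35 ± 0.20, adjusted p = 0.273) and was chosen after its value was seen.

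Among 22 further ligand genes, 9 could be tested, 2 rose, 1 fell and 6 did not pass (median -0.46, with -0.73 on omitting PE replicate 1 and -0.22 on omitting PE replicate 2). Bmp3 fell by 1.10 ± 0.18 (adjusted p = 0.00215), to 14.2 and 13.4 CPM with PE, against 27.6 and 31.5 CPM in control. Bmp7 rose by 0.80 ± 0.20 (adjusted p = 0.0226), at 49 and 63.3 CPM with PE and 36.8 and 27.6 CPM in control, a call lost on omitting PE replicate 2 (adjusted p = 0.352). Gdf11, the closest relative of myostatin, rose by 0.64 ± 0.18 (adjusted p = 0.0358). That call was lost on omitting PE replicate 1 (adjusted p = 0.286), on omitting PE replicate 2 (adjusted p = 0.352) and with library sizes alone (adjusted p = 0.0518).

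**Figure D4:**
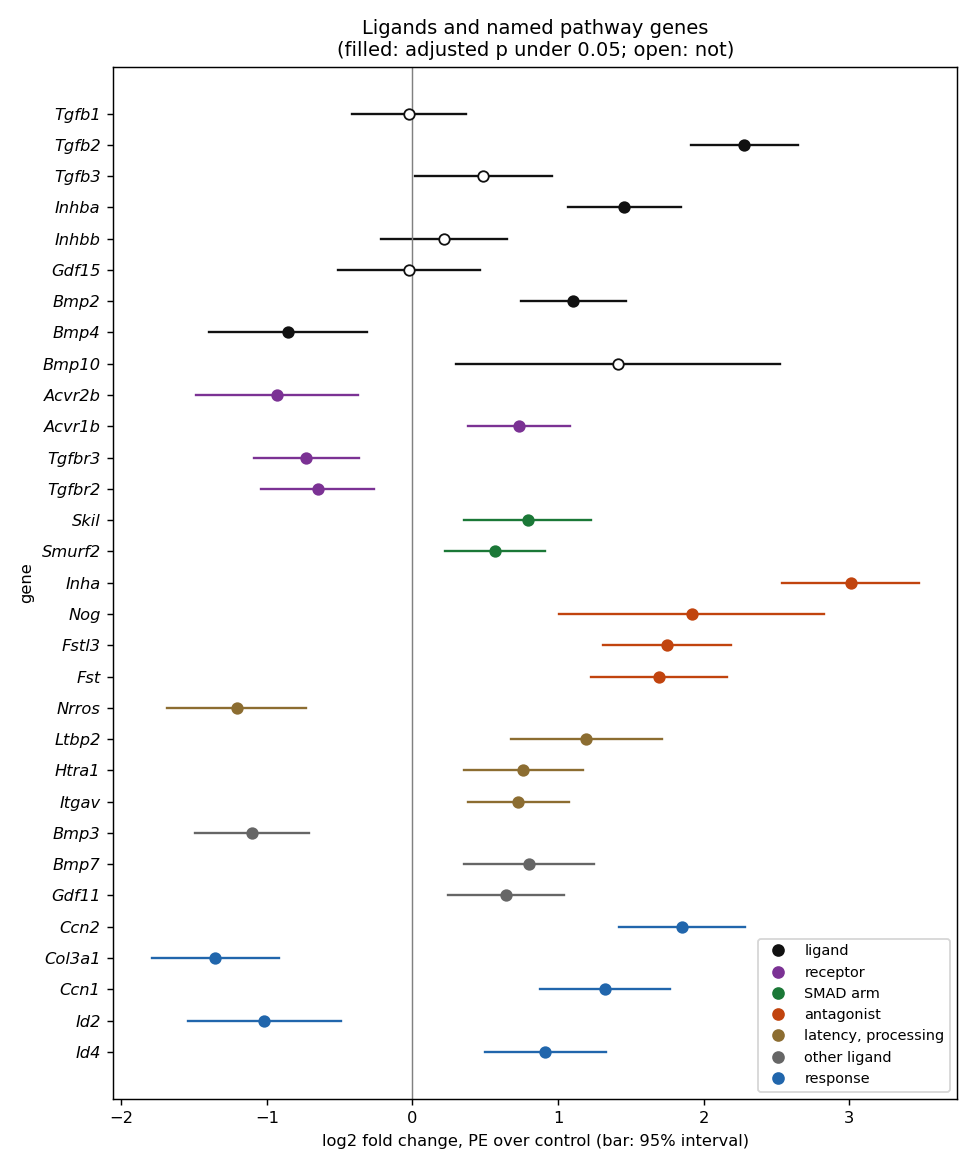
Log2 fold change, PE over control (horizontal axis), with its 95% interval for the 9 tested ligand genes (top, black) and the named genes of the pathway lists, coloured by role. Filled points have an adjusted p under 0.05. Inha (3.01) lies right of every ligand, and the receptors Tgfbr2, Tgfbr3 and Acvr2b lie left of 0.

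Of 15 genes known to respond to TGF-beta or activin, 8 rose, 2 fell and 5 did not pass (median 0.79, and 0.51 on omitting PE replicate 2). Skil and Ltbp2, among those that rose, were already counted as higher in the lists above. Ctgf, now named Ccn2, was at 818 and 845 CPM with PE and at 266 and 194 CPM in control (1.85 ± 0.19, adjusted p = 0.000181). Cyr61, now named Ccn1, rose by 1.32 ± 0.20 (adjusted p = 0.00154). Both CCN genes also answer to other signals, YAP among them. Col3a1, a fibrillar collagen gene, fell by 1.35 ± 0.20 (adjusted p = 0.00118), to 2603 and 2843 CPM with PE, against 7841 and 6076 CPM in control. Col3a1 is also one of the fibroblast markers. Without it, those markers summed to 7479 and 7151 CPM with PE and to 10324 and 10199 CPM in control. That sum still held Col1a1 and Postn, which are on the response list too. Without Col3a1, Col1a1 and Postn they summed to 2314 and 1652 CPM with PE and to 1484 and 2139 CPM in control, and overlapped. Dcn was the largest part of this last sum, while Pdgfra within it was lower with PE (adjusted p = 0.0253, edgeR). That split was chosen after the values had been seen, and the part of these markers in the fall of Col3a1 was not tested. The list held genes moving both ways, and 5 to 9 of its genes were higher and 1 to 5 lower when each library was left out.

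Of 14 genes known to respond to BMPs, 1 rose, 1 fell and 12 did not pass (median 0.27). Id2, a helix-loop-helix inhibitor, was at 41.5 and 37.6 CPM with PE and at 59.1 and 101.1 CPM in control, a fall of 1.02 ± 0.24 (adjusted p = 0.0160). Omitting control replicate 2 gave -0.58, and the call ended on omitting PE replicate 2 (-0.94, adjusted p = 0.0919). Id4, of the same family, rose by 0.91 ± 0.19 (adjusted p = 0.00822), at 18 and 15.8 CPM with PE and 8.65 and 9.28 CPM in control, but not without PE replicate 1 (0.82, adjusted p = 0.133). Id1, the best known BMP target, just missed the threshold at 0.53 ± 0.16 (adjusted p = 0.0503). It was chosen after its value was seen. In this list 0 to 6 genes were higher and 0 to 3 lower when each library was left out, with 1 at an unadjusted p under 0.05 where a count was 0 in edgeR, and DESeq2 on all libraries called 4 higher and 1 lower.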

How the data were processed

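Strand-specific, rRNA-depleted RNA-seq libraries were analysed from the raw counts per gene that the authors deposited. Cutadapt 2.0, STAR 2.4.2a, featureCounts 1.6.4 and the build Rnor_6.0 are named, per the submitters' processing notes, with no parameters, and whether counting used strand is unknown here. The authors' deposited table of their own comparison gave gene names, and its log2 fold changes, their standard errors and adjusted p-values are quoted only where it is named. Its mean signal and its test score (Wald statistic), per the file headers, were not used.

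The whole table of 32883 genes was fitted with edgeR 4.0.16 (R 4.3.3, limma 3.58.1), using TMM factors, its default filter (minimum count 10, minimum total 15, 15257 genes kept), the quasi-likelihood F test and Benjamini-Hochberg adjustment over all tested genes. A standard error is the log2 fold change divided by the square root of F. DESeq2 1.42.0 was an alternative. The fit was tested on simulated data. Where a symbol had several identifiers, the one with the highest summed count was used. Replicates differed beyond sampling noise (chi-square per degree of freedom 23.4 between the PE libraries and 161 between the controls). The members and lists were chosen with earlier results of these data known. From each pathway list, up to 4 called genes with the largest change were named, and all 10 ligands. Some genes of these lists are counted but not reported here by name. No p is given for a list.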

Additional observations from a re-analysis of the deposited data

How the results depend on the processing

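Of the ligand calls, the rises of Tgfb2, Inhba and Bmp2 passed under all 11 alternatives run. The number of genes changed, 2393 in all (1127 higher, 1266 lower), was 1205 to 4755 when each library was left out (604 to 2398 higher and 601 to 2389 lower). Lower ligand genes numbered 0 to 1, higher pathway genes 10 to 32 and lower pathway genes 3 to 22. Where the count of lower ligands was 0 in edgeR, Bmp4 was lower at an unadjusted p under 0.05 each time, and DESeq2 on all 4 libraries called it. Fits on 3 libraries take their spread from the intact pair and assume that the lone library varies like it. With the replicate block 1964 genes changed, and the ligand calls were the same 3 higher and 1 lower. Acvr1b, Tgfbr3, Tgfbr2, Smurf2 and Gdf11 did not pass with it, and 1 cardiomyocyte marker was higher, against 2 without it. With the block 3 endothelial, 1 macrophage and 2 mesothelial markers were lower, against 5, 3 and 3 without it. Higher mesothelial markers numbered 0 with the block and 1 without it. The fibroblast list had 2 lower either way. The labels do not say that the numbers pair the libraries, and replicate differences correlated at -0.229 across genes between the groups. No value reversed a call. Depth limits Mstn and Bmp10.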
